A study of Mus musculus with 9 samples.

Results

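Expression of 40 genes of transforming growth factor beta (TGF-beta) and bone morphogenetic protein (BMP) signalling was compared between ploidies in p53-deficient mouse embryonic cell clones. In the main fit, with all 9 clones and the brightest probe of each gene, Itga5 was the only member to pass an adjusted p of 0.05. Inhba also passed under some other settings, and so did another probe of Tgfbr2. Itga5, the alpha subunit of the fibronectin receptor, was 2.85-fold lower in triploid than in diploid clones and 2.40-fold lower than in tetraploid clones (n = 3 per group). The 40 genes were a list of ligands, latency proteins, receptors, SMADs, inhibitors, antagonists and Id targets, chosen with earlier results of these data known. Each was found on the array through the RefSeq accessions of its probes. They were 40 of 20018 named genes on the array, and each was represented by the brightest of its probes that passed the filter on dim signals. Of the 40, 37 passed that filter, among 12434 named genes that did. Bmp6, Acvr1b and Bambi did not.

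RNA from 3 diploid, 3 triploid and 3 tetraploid clones was hybridised to 9 one-colour Agilent mouse arrays, 1 array per clone. All 9 clones carried the genotype p53-/-, diploid controls included, so the absence of this tumour suppressor is shared by every group. The cells were grown in Eagle's medium with 10% fetal bovine serum and received no treatment. Each clone is a line grown from embryonic cells, and the sample names of 7 clones extend RRI2, the name of diploid clone 1, while diploid clone 2 is named RRI15. No label states that clones of a group came from separate animals or cultures, so the p-values below measure only the spread between these samples, which may be technical. The series title names genome instability and tumorigenesis in triploid cells, and the design compares expression between the 3 ploidy groups.

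Ligands of the TGF-beta superfamily are secreted as dimers and bind paired type I and type II receptor kinases. TGF-betas and activins signal mainly through Smad2 and Smad3, BMPs through Smad1 and Smad5, and both arms use the shared partner Smad4. TGF-beta leaves the cell in a latent complex that matrix proteins hold and that integrins, proteases and thrombospondin help to open. In cultured mesenchymal cells the pathway is known for inducing matrix and contractile genes, while BMPs are known for inducing the Id genes.

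Values are log2 signals relative to the 75th percentile of the same array, so a level of 0 is that percentile, and levels are compared between clones for 1 probe and never between probes. Spots well above background made up 44.8% to 50.9% of each array, the 75th percentile lay between 215 and 407 intensity units, and 0 spots were saturated. Over the 21797 features tested, triploid clone 1 correlated with triploid clones 2 and 3 at 0.948 and 0.956, against 0.985 between those clones. Correlations were 0.969 to 0.981 within the diploid group and 0.955 to 0.978 within the tetraploid group. Diploid clone 1 was hybridised on a slide of its own and the other 8 clones shared another, so a fit with the slide as a block is the fit without diploid clone 1. Of 10 mesenchyme and fibroblast markers, 9 were well above background on all 9 arrays, among them Col1a1, Pdgfrb and Vim. The exception was Thy1, with levels of 6.42, 7.62 and 2.55 in the diploid clones, -2.04, -2.63 and -4.86 in the triploid clones and 2.66, -4.67 and -4.13 in the tetraploid clones. The summed log2 level of these 10 markers was 45.41 to 54.81 in diploid, 39.37 to 41.80 in triploid and 39.98 to 50.68 in tetraploid clones, and the part of these levels in the results below was not tested. Without Thy1, the sum of the other 9 was 42.86 to 47.19 in diploid, 42.9 to 44.43 in triploid and 44.65 to 49.35 in tetraploid clones, so the groups overlapped except triploid and tetraploid clones. Markers of other cell types were mixed. Those well above background on 0 arrays were Cdh1 and Epcam of epithelium, Pou5f1 and Zfp42 of pluripotent cells, Emcn of endothelium, Ptprc, Adgre1 and Hbb-bt of blood, Gfap of glia, and Elf5, Cdx2 and Tfap2c of trophoblast. Others were well above background on all 9 arrays: 1 of 7 epithelial markers (Krt14), 1 of 5 pluripotency markers (Nanog), 2 of 5 endothelial markers (Pecam1 and Kdr) and 1 of the 4 blood markers on the array (Cd3e). The same held for 4 of 5 neural markers (Sox10, Tubb3, Nes and Map2) and 2 of 5 trophoblast markers (Prl3d1 and Gata3). Krt18, an epithelial keratin, was well above background on 6 arrays, 3 diploid, 2 triploid and 1 tetraploid. In whole cultures, fewer cells of a type and less RNA per cell cannot be told apart.

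Between triploid and diploid clones, 1 of the 37 members tested passed an adjusted p of 0.05 in limma's moderated test, and it was lower. Over all features tested, 1.84% passed, with 1.22% lower and 0.615% higher. In the same test 1 member, again lower, differed between triploid and tetraploid clones, against 2.7% of all features, with 1.61% lower and 1.09% higher. No member passed between tetraploid and diploid clones, where 0.0734% of features did. At an unadjusted p under 0.05, that last comparison held 5 members and 3226 of 21797 features. The median difference over the 37 members was 0.07 between triploid and diploid clones, against 0.10 over all features. It was 0.20 against -0.01 between tetraploid and diploid clones, and -0.16 against 0.17 between triploid and tetraploid clones. Taking the percentile over probes detected on every array shifted the median over all features to -0.05, -0.14 and 0.15 in the same order, and the first member median then became -0.07. That scaling also moved the features called between triploid and diploid clones from 134 higher and 266 lower to 119 higher and 439 lower. In the authors' deposited table, centred in the same way as the scanner values, the split was 77 higher and 709 lower, and between triploid and tetraploid clones it was 156 higher and 428 lower, against 237 and 352.

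**Figure D1:**
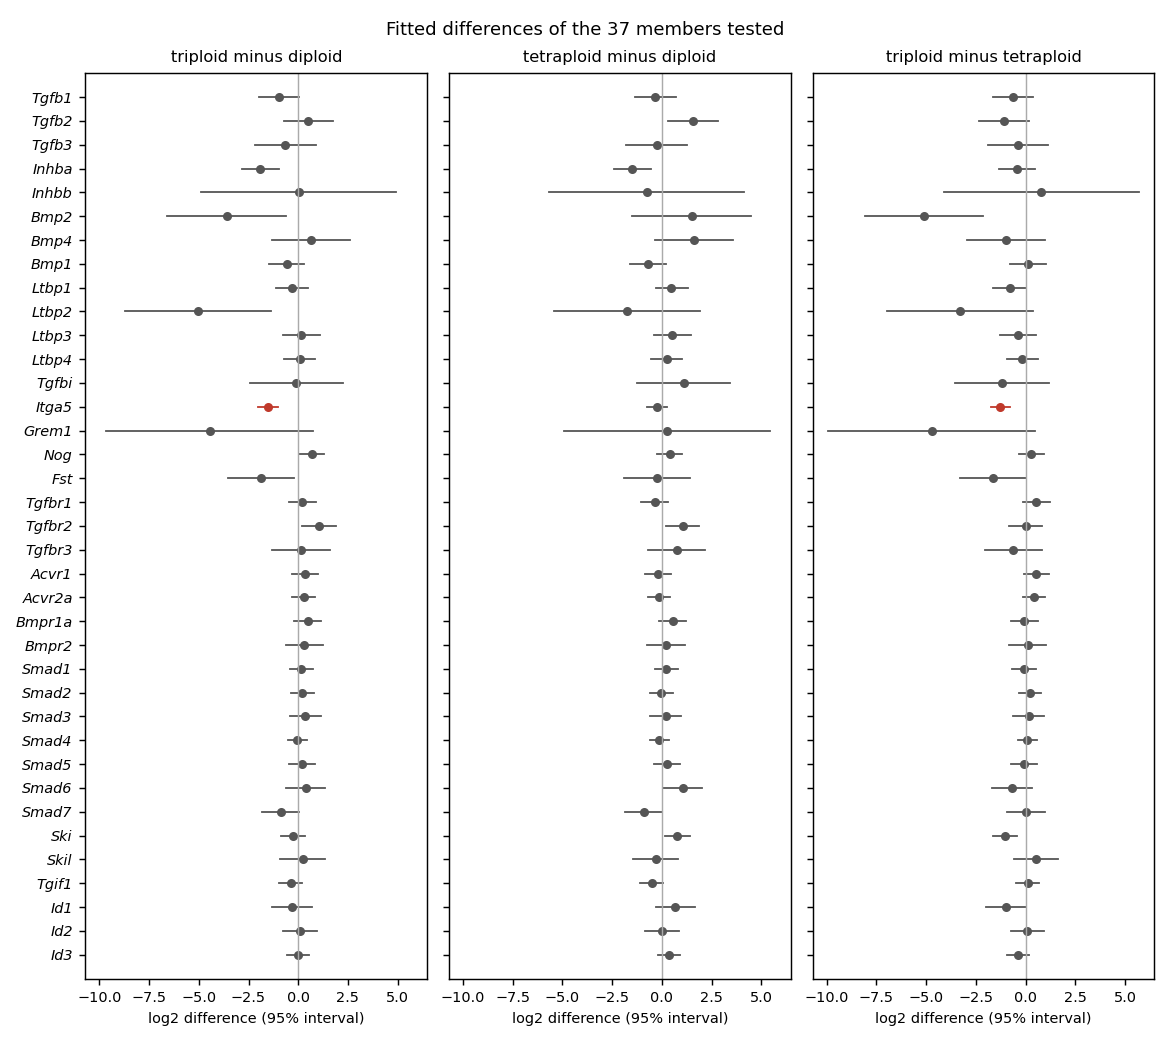
Fitted log2 differences of the 37 members tested, in 1 panel per comparison, with 95% intervals as lines and members that passed an adjusted p of 0.05 in red. Itga5 is the only red point, at -1.51 for triploid minus diploid and at -1.27 for triploid minus tetraploid, and the triploid minus diploid points of the 5 SMADs that carry the signal lie between -0.05 and 0.35.

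Itga5, on chromosome 15, pairs with the beta 1 integrin chain to bind fibronectin, and it is a gene that TGF-beta is known to induce. Its level was 1.75, 1.41 and 1.87 in the diploid clones, -0.06, 0.20 and 0.35 in the triploid clones, and 1.42, 1.54 and 1.33 in the tetraploid clones. Every triploid clone lay more than 1 below every diploid clone, and the triploid clones did not overlap the tetraploid clones. The difference was -1.51 ± 0.22 (SE, adjusted p = 0.0167, n = 3 per group) against diploid clones, a 2.85-fold lower level. Against tetraploid clones it was -1.27 ± 0.22 (adjusted p = 0.0233), or 2.40-fold lower. Tetraploid and diploid clones differed by -0.25 ± 0.22 (adjusted p = 0.63). Leaving out diploid clone 1, diploid clone 3, triploid clone 2 or triploid clone 3 ended the first call, with differences of -1.64 to -1.40 over the 9 omissions and adjusted p-values of 0.0138 to 0.0676. Within the shared slide, without diploid clone 1, it was -1.48 ± 0.25 (adjusted p = 0.0597). The second call ended without triploid clone 2, triploid clone 3, tetraploid clone 1 or tetraploid clone 3, with adjusted p-values of 0.0266 to 0.0875. Fitting without the filter on dim signals also ended both calls. Over all 22 alternatives the first call passed in 16 and the second in 17.

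Promoters of members that carry the results, each 250 bases ending just before the start site, were read from the RefSeq table of GRCm38.p6. They were searched for CAGAC, a short SMAD-binding motif, and for GGCGCC, a motif that Smad1 and Smad5 are known to bind, both on either strand, and matches are in capitals. The motifs can share at most 1 letter, at an end. Itga5 and Inhba are shown for the lower triploid values described here and hold no match to either motif. Ltbp2 is shown for its wide spread between clones. Id3 is shown as a BMP target with nearly equal mean levels in diploid and triploid clones. Both hold 2 matches to CAGAC.
Itga5, chr15:103366792-103367041, minus strand: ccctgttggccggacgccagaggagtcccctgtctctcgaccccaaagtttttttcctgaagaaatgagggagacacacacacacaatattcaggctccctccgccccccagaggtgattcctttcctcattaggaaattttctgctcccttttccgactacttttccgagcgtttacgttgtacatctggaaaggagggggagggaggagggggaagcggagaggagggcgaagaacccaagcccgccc
Inhba, chr13:16011601-16011850, plus strand: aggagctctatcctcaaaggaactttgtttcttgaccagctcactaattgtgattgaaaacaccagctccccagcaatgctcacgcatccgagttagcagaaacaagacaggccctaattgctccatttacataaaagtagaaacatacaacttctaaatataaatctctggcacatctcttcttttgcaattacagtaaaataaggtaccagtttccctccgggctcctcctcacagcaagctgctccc
Ltbp2, chr12:84876492-84876741, minus strand: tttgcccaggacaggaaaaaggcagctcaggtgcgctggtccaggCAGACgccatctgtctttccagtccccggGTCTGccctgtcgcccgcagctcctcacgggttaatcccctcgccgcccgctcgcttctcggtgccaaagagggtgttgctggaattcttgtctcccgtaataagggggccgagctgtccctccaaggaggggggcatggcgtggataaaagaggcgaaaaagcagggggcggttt
Id3, chr4:136143572-136143821, plus strand: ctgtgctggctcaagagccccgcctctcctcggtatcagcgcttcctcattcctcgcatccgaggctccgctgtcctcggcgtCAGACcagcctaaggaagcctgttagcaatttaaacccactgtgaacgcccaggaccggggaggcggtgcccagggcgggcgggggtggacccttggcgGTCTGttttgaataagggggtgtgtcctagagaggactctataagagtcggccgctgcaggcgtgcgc
The table held 38 promoter windows of 28 of the 40 members. CAGAC was found in 42.1% of these windows and in 42.2% of all 32851 windows of the same length in the table. GGCGCC was found in 26.3% of the members' windows and in 9.59% of all windows. A match is a description of letters and no evidence of binding.

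The 3 TGF-beta ligands gave no call in any comparison. Tgfb2 had levels of 3.07, 2.31 and 2.64 in the diploid clones, 1.85, 3.52 and 4.17 in the triploid clones, and 3.59, 4.70 and 4.49 in the tetraploid clones. All tetraploid clones lay above all diploid clones, while triploid clone 1 lay below them and the other two triploid clones above. The tetraploid minus diploid difference was 1.58 ± 0.56 (adjusted p = 0.239), and a further probe gave 1.42. Tgfb1 averaged -0.31 ± 0.37 (SD, n = 3) in diploid, -1.27 ± 0.73 in triploid and -0.64 ± 0.74 in tetraploid clones, with the groups overlapping. The corresponding levels of Tgfb3 were 5.13 ± 0.63, 4.47 ± 1.54 and 4.85 ± 0.43. The wide triploid SD came from triploid clone 1, at 2.70 against 5.21 and 5.49 in the other triploid clones.

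Among the latency and matrix genes, Ltbp2, a matrix protein of the latent TGF-beta binding family, showed the widest range. Its level was 3.47, 5.04 and 6.12 in the diploid clones, 2.88, -2.81 and -0.57 in the triploid clones, and 4.64, -0.17 and 4.91 in the tetraploid clones. Every triploid clone lay below every diploid clone, but triploid clone 1 stood close to diploid clone 1. The difference of -5.05 ± 1.63 missed the threshold (adjusted p = 0.134) and passed it without triploid clone 1 (-6.57, adjusted p = 0.0407). That clone stood apart at this gene, so the second value is a description. Ltbp1, which tethers latent TGF-beta to the matrix, averaged 3.95 ± 0.35, 3.63 ± 0.35 and 4.43 ± 0.65 in diploid, triploid and tetraploid clones. Ltbp3, which also binds latent TGF-beta, averaged 3.52 ± 0.50, 3.68 ± 0.48 and 4.05 ± 0.67. The differences of Ltbp4 lay between -0.16 and 0.24. Tgfbi, a secreted matrix protein named for its induction by TGF-beta, averaged 1.5 ± 2.04, 1.39 ± 1.64 and 2.59 ± 0.67, and its groups overlapped.

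Inhba, the subunit of activin A, had levels of 5.04, 5.31 and 5.53 in the diploid clones, 2.54, 3.98 and 3.63 in the triploid clones, and 4.46, 3.48 and 3.47 in the tetraploid clones. All 6 clones of higher ploidy lay below all diploid clones, and triploid and tetraploid clones overlapped. Triploid clones differed from diploid clones by -1.91 ± 0.41 (adjusted p = 0.0533), a 3.76-fold lower level just outside the threshold. It passed without triploid clone 1 and under 6 of the other settings tried, with adjusted p-values from 0.0299 to 0.16 over all of them. Tetraploid clones differed from diploid clones by -1.49 ± 0.41 (adjusted p = 0.149). These 2 comparisons share the diploid clones. Inhbb, the subunit of activin B, was not well above background in triploid clone 1 and tetraploid clone 2. Its measured levels elsewhere ran from -0.53 to 3.31, and triploid clones 2 and 3, at 2.52 and 3.31, were the highest of all clones.

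**Figure D2:**
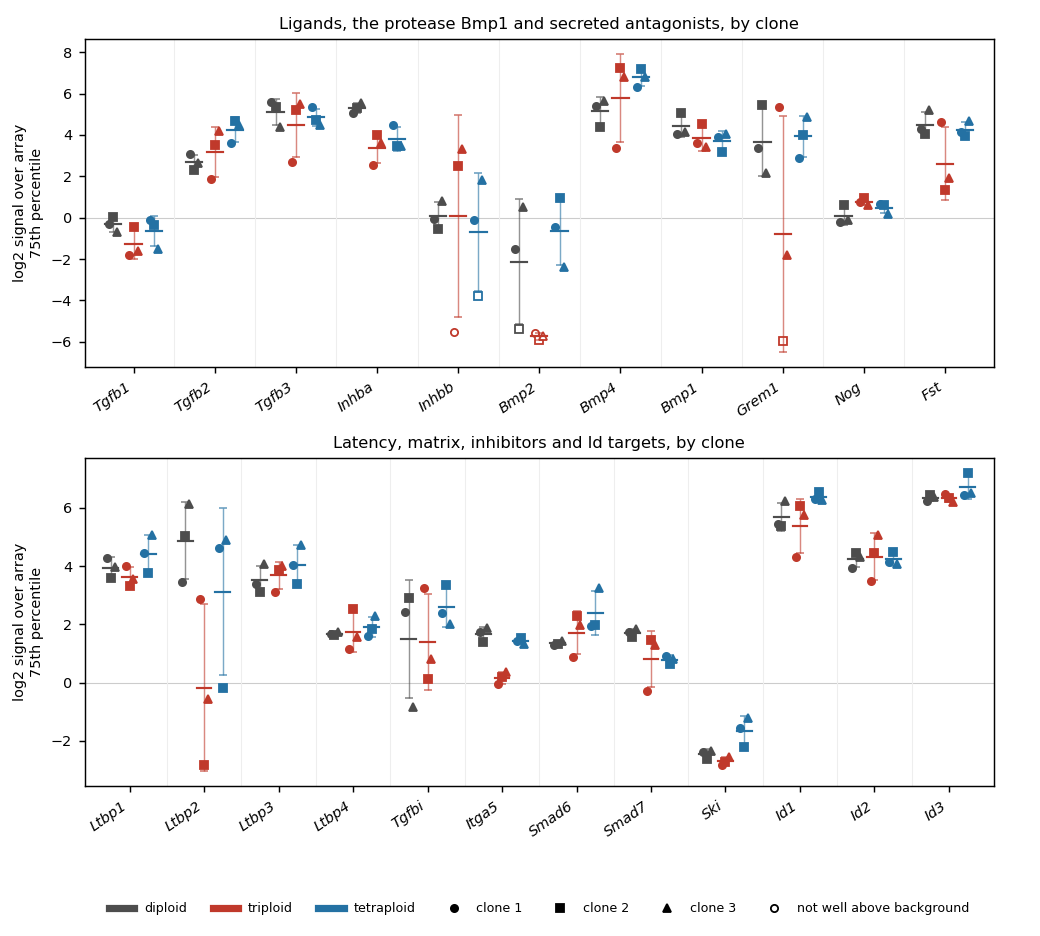
Log2 signal over the array's 75th percentile (vertical axis) of secreted members (top) and of latency, matrix, inhibitor and Id genes (bottom) in each clone, coloured by ploidy, with the clone number as the symbol. Bars are the mean ± SD of 3 clones and open symbols are spots not well above background. Itga5 is lower in the 3 triploid clones, at -0.06, 0.20 and 0.35, than in all 6 other clones.

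Of the BMPs, Bmp2 was not well above background in any triploid clone. Its levels were -1.53, -5.39 and 0.54 in the diploid clones, with diploid clone 2 also not well above background, and -0.45, 0.93 and -2.37 in the tetraploid clones. The measured signal in the triploid clones was -5.57, -5.90 and -5.71, which stands for a bound only. For this bound the triploid clones were set no lower than the lowest signal above background. Diploid clones, measured on 2 of 3 arrays, were then at least 3.02-fold brighter, and tetraploid clones at least 8.52-fold brighter, than triploid clones. The limma fit of triploid minus diploid used the signals as measured, not the bound, and did not pass (adjusted p = 0.169). The diploid comparison passed without diploid clone 2 (adjusted p = 0.048). Bmp2 passed the filter on dim signals only through the tetraploid group, so its triploid and tetraploid values had to differ and are given as a description, with no test. Bmp4, unlike Bmp2, was measured in every clone. Its levels were 5.41, 4.39 and 5.65 in diploid, 3.36, 7.23 and 6.78 in triploid, and 6.34, 7.17 and 6.82 in tetraploid clones. The tetraploid clones all lay above the diploid clones, and triploid clone 1 lay below every other clone. The tetraploid minus diploid difference was 1.63 ± 0.88 (adjusted p = 0.422). Bmp1, a protease that cleaves procollagen and chordin rather than a ligand, averaged 4.43 ± 0.55, 3.84 ± 0.60 and 3.72 ± 0.46 in diploid, triploid and tetraploid clones. Bmp6 did not pass the filter because it was well above background on 2 arrays only, those of triploid clones 2 and 3, at -0.18 and -1.36.

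The 7 receptors tested gave no call in any comparison. In triploid minus diploid, all 7 differences were fitted above 0, from 0.14 to 1.06, with a median of 0.31 against 0.10 over all features. With the authors' deposited table centred on its percentile, 4 lay above 0 and 2 below, with a median of 0.03. As deposited, all 7 lay above 0, with a median of 0.31. Tgfbr2, the type II receptor that binds TGF-beta, had levels of 3.53, 2.56 and 3.03 in diploid, 4.10, 4.29 and 3.90 in triploid, and 3.64, 3.75 and 4.89 in tetraploid clones. All 6 clones of higher ploidy lay above all diploid clones. The differences from diploid clones were 1.06 ± 0.37 for triploid clones (adjusted p = 0.159) and 1.05 ± 0.37 for tetraploid clones (adjusted p = 0.244). Its other probe gave 1.48 ± 0.30 for triploid clones, with an adjusted p of 0.0478 in limma's test over all probes, and 0.43 ± 0.30 for tetraploid clones (adjusted p = 0.544). Acvr1, a type I receptor for BMPs, averaged 3.50 ± 0.21 in diploid, 3.84 ± 0.55 in triploid and 3.29 ± 0.11 in tetraploid clones. Bmpr1a, another type I receptor for BMPs, averaged 2.16 ± 0.21, 2.63 ± 0.57 and 2.70 ± 0.20, and Tgfbr3, the co-receptor betaglycan, 1.09 ± 0.35, 1.23 ± 1.37 and 1.84 ± 0.77. For Tgfbr1, Acvr2a and Bmpr2 the differences lay between -0.35 and 0.54. Acvr1b and the decoy receptor Bambi were well above background on 0 arrays.

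The 5 SMADs that carry the signal gave no call and differed little in the fit on the probe that stands for each gene. Their triploid minus diploid differences ran from -0.05 for Smad4 to 0.35 for Smad3, and their tetraploid minus diploid differences from -0.14 to 0.27. Smad4 averaged 4.13 ± 0.17 in diploid, 4.08 ± 0.06 in triploid and 3.99 ± 0.27 in tetraploid clones. Its 95% interval for triploid minus diploid ran from -0.53 to 0.44. Smad3, which transmits TGF-beta and activin signals, averaged 3.08 ± 0.51, 3.43 ± 0.45 and 3.27 ± 0.39, with an interval from -0.44 to 1.13. Smad5, which transmits BMP signals, averaged 3.61 ± 0.18, 3.80 ± 0.54 and 3.88 ± 0.26, with an interval from -0.48 to 0.86. No SMAD had groups that did not overlap in any of the 3 comparisons, and the intervals do not exclude differences of the sizes they span. Smad1, Smad3, Smad4 and Smad5 each had another probe that passed the filter, and none of these passed the test. The other probe of Smad5 differed from the one above, with 0.74 ± 0.31 against -0.08 ± 0.30 for triploid minus tetraploid and -0.36 ± 0.31 against 0.27 ± 0.30 for tetraploid minus diploid. That of Smad3, well above background on 6 arrays, gave 0.51 ± 0.35 for triploid minus diploid and 0.59 ± 0.35 for triploid minus tetraploid. For Smad1 it gave 0.37 ± 0.21 for triploid minus diploid and 0.41 ± 0.21 for tetraploid minus diploid.

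Inhibitors inside the cell also gave no call. Smad6, which blocks mainly BMP signals, had levels of 1.31, 1.32 and 1.43 in diploid, 0.88, 2.29 and 1.99 in triploid, and 1.96, 1.97 and 3.26 in tetraploid clones. Tetraploid clones all lay above diploid clones, by 1.05 ± 0.44 on average (adjusted p = 0.313). Ski, a corepressor that binds SMADs, had levels of -2.37, -2.62 and -2.33 in diploid, -2.82, -2.73 and -2.55 in triploid, and -1.57, -2.20 and -1.22 in tetraploid clones. Tetraploid clones were above all other clones, and triploid minus tetraploid was -1.04 ± 0.27 (adjusted p = 0.0753), which passed without tetraploid clone 2 (adjusted p = 0.0318). Smad7, which blocks both arms and is itself induced by TGF-beta, averaged 1.71 ± 0.14 in diploid, 0.82 ± 0.97 in triploid and 0.79 ± 0.15 in tetraploid clones. Every diploid clone lay above every other clone, with differences of -0.89 ± 0.42 for triploid (adjusted p = 0.26) and -0.92 ± 0.42 for tetraploid clones (adjusted p = 0.349). Tgif1, a homeobox corepressor of SMADs, was highest in diploid clones as well, at 4.68 ± 0.07 against 4.29 ± 0.26 in triploid and 4.18 ± 0.41 in tetraploid clones. The differences of Skil, a relative of Ski, lay between -0.32 and 0.54.

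The secreted antagonists Grem1 and Fst, singled out after their values were seen, split the triploid clones. Grem1, which captures BMPs, had levels of 3.39, 5.43 and 2.17 in the diploid clones and 2.90, 4.01 and 4.88 in the tetraploid clones. Its levels in the triploid clones were 5.36, -5.94 and -1.81, the second of them not well above background. Fst, which captures activins, had levels of 4.27, 4.04 and 5.19 in diploid, 4.61, 1.35 and 1.90 in triploid, and 4.13, 3.96 and 4.66 in tetraploid clones. For both genes triploid clones 2 and 3 lay below all other clones, while triploid clone 1 lay among the diploid and tetraploid clones. With all clones, triploid minus diploid was -4.45 ± 2.30 for Grem1 (adjusted p = 0.306) and -1.88 ± 0.74 for Fst (adjusted p = 0.19). Without triploid clone 1, the clone that stood apart, the differences were -7.53 (adjusted p = 0.0139) and -2.88 (adjusted p = 0.00681). That clone was picked by these same values, and leaving it out narrows the triploid spread at both genes. These p-values are therefore a description. The Grem1 value then rests on triploid clones 2 and 3, the first of them not well above background. Nog, an antagonist of BMPs, averaged 0.09 ± 0.46 in diploid, 0.78 ± 0.16 in triploid and 0.49 ± 0.28 in tetraploid clones.

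The Id genes encode helix-loop-helix inhibitors and are direct targets of BMP signals. Id3 averaged 6.34 ± 0.10 in diploid, 6.34 ± 0.12 in triploid and 6.71 ± 0.42 in tetraploid clones, and Id2 averaged 4.24 ± 0.27, 4.33 ± 0.80 and 4.24 ± 0.22. Id1 averaged 5.69 ± 0.48, 5.38 ± 0.93 and 6.37 ± 0.16. Its tetraploid clones, from 6.27 to 6.55, lay above all other clones, with a tetraploid minus diploid difference of 0.68 ± 0.44 (adjusted p = 0.504). The tetraploid minus diploid difference of Id3 was 0.37 ± 0.24 (adjusted p = 0.512).

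Counted by overlap alone, triploid and diploid clones did not overlap for 7 of the 37 members, 6 of them lower in triploid clones, against 28% of all features, with 10.8% lower and 17.2% higher. Ltbp2, Itga5, Inhba, Bmp2, Smad7 and Tgif1 were the lower members and Tgfbr2 the higher one. Tetraploid and diploid clones did not overlap for 11 members, against 22.1% of features (11.1% lower and 11% higher). Of those 11, 8 were higher in tetraploid clones (Tgfb2, Bmp4, Tgfbr2, Bmpr1a, Smad6, Ski, Id1 and Id3), and none of the 8 passed the test. Triploid and tetraploid clones did not overlap for 4 members, all lower in triploid clones (Itga5, Bmp2, Ski and Id1), against 26% of features (11.3% lower and 14.7% higher). Bmp2 entered these counts with signals below background, and its place among the 4 was fixed by the filter on dim signals. Its place among the 6 lower members rests on diploid clone 2, at -5.39, against -5.57 in triploid clone 1. Neither spot was well above background, so that place carries no order. Of the 37 members, 34 were well above background on every array.

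Clones of the same ploidy differed among themselves at these genes, triploid clone 1 most of all. That clone lay more than 1 log2 unit from both other triploid clones at 14 of the 37 members, or 37.8%, against 10.1% of all features and 12.2% of named genes. It lay below them at Tgfb2, Tgfb3, Inhba, Inhbb, Bmp4, Smad6, Smad7, Skil and Id1, and above them at Ltbp2, Tgfbi, Tgfbr3, Grem1 and Fst. Tetraploid clone 3 came next, with 7 members or 18.9% against 7.35% of features, and it was above its group at Inhbb, Tgfbr2, Tgfbr3 and Smad6 and below it at Tgfb1, Bmp2 and Skil. The other 7 clones stood apart at 2.7% to 13.5% of members, against 1.87% to 6.38% of features. Without triploid clone 1, 6 members passed between triploid and diploid clones, with Bmp4 higher and Itga5, Inhba, Ltbp2, Grem1 and Fst lower. In that fit 3 members, Itga5, Grem1 and Fst, passed between triploid and tetraploid clones. The features called then rose from 400 to 1434 and from 589 to 1312. All of those members but Itga5 are among the 14 at which triploid clone 1 stood apart. Leaving it out narrows the triploid spread there, so their calls are a description.

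**Figure D3:**
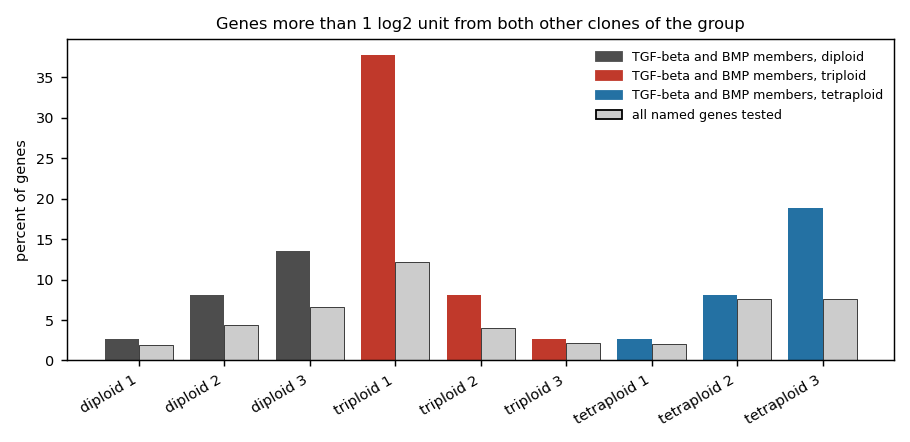
Share of the 37 members and of all 12434 named genes tested (percent, vertical axis) at which each clone lay more than 1 log2 unit from both other clones of its group. The highest bars are those of triploid clone 1, at 37.8% of members and 12.2% of named genes, followed by tetraploid clone 3 at 18.9% of members.

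Other genes of the pathway were followed in 7 lists of 90 genes, of which 69 were tested. These lists were also chosen with earlier results of these data known, so their counts are a description. Between triploid and diploid clones 6 of the 69 passed, all lower in triploid clones, and 0 passed between tetraploid and diploid clones. Between triploid and tetraploid clones 5 passed, 3 lower and 2 higher in triploid clones. The shares of all features given above for each comparison are the background of these counts. Without diploid clone 1, and so within the shared slide, 1 gene passed against diploid clones (Lrrc32) and 3 passed between triploid and tetraploid clones (Lrrc32, Ldlrad4 and Thbs1).

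A list of genes that hold, process or release TGF-beta, not all of them activators, gave 3 of the 6 calls against diploid clones. Of 13 genes in that list 11 were tested. All 11 were fitted below 0 against diploid clones, with a median of -1.09, and against tetraploid clones, with a median of -1.23. Against diploid clones, 9 of 11 were below 0 without triploid clone 1. Lrrc32, also called GARP, holds latent TGF-beta on the cell surface. Its level was 4.66, 3.91 and 5.59 in diploid, -0.71, -3.22 and -2.19 in triploid, and 4.52, 2.64 and 5.50 in tetraploid clones. The triploid clones lay far below every other clone, with a difference of -6.76 ± 0.82 against diploid clones (adjusted p = 0.00832) and of -6.26 ± 0.82 against tetraploid clones (adjusted p = 0.00829). Both calls held in all 22 alternatives, with adjusted p-values up to 0.0421.

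Thbs1, thrombospondin 1, a matricellular activator of latent TGF-beta, had levels of 7.12, 6.16 and 7.44 in diploid, 4.97, 5.11 and 5.01 in triploid, and 6.97, 6.74 and 7.05 in tetraploid clones. It was lower in triploid clones, with a difference of -1.88 ± 0.32 against diploid (adjusted p = 0.0289) and of -1.89 ± 0.32 against tetraploid clones (adjusted p = 0.0213), a 3.67-fold and a 3.70-fold difference. Furin, the protease that cuts the TGF-beta precursor, had levels of 2.68, 2.42 and 1.94 in diploid, 1.34, 0.97 and 1.28 in triploid, and 1.70, 1.67 and 1.66 in tetraploid clones. Its triploid minus diploid difference was -1.15 ± 0.24 (adjusted p = 0.0495). Leaving out diploid clone 1, diploid clone 3, triploid clone 2, triploid clone 3 or tetraploid clone 1 ended the first Thbs1 call (adjusted p up to 0.105). The second ended without triploid clone 2, triploid clone 3, tetraploid clone 1 or tetraploid clone 3 (up to 0.0836). The Furin call ended when any clone other than triploid clone 1 was left out (up to 0.184). It also ended without the filter, with the clone number as a block and with only the compared groups fitted. Of 22 alternatives, the Thbs1 calls passed in 14 and 17 and the Furin call in 10.

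Of 12 targets tested that TGF-beta is known to induce, 2 were lower in triploid than in diploid clones, and 1 of these also against tetraploid clones. The median triploid minus diploid difference of the 12 was -0.70. Ldlrad4, a membrane protein that restrains TGF-beta signalling, had levels of 0.29, 0.20 and 0.34 in diploid, -2.63, -1.65 and -1.48 in triploid, and 0.28, -0.09 and -0.27 in tetraploid clones. It was lower in triploid clones against diploid (-2.20 ± 0.32, adjusted p = 0.0167) and against tetraploid clones (-1.89 ± 0.32, adjusted p = 0.0213). Cnn1, the contractile protein calponin 1, had levels of 7.87, 7.51 and 6.27 in diploid, 5.11, 3.32 and 4.90 in triploid, and 6.45, 5.90 and 6.60 in tetraploid clones. It differed by -2.77 ± 0.54 against diploid clones (adjusted p = 0.0444).

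The usual targets Ccn2, Acta2, Tagln and Pmepa1 did not pass in either comparison. Ccn2, connective tissue growth factor, had levels of 7.92, 7.69 and 8.43 in diploid, 3.82, 6.83 and 7.04 in triploid, and 8.03, 6.97 and 7.86 in tetraploid clones. Triploid minus diploid was -2.12 ± 0.76 (adjusted p = 0.161), with triploid clone 1 far below the rest. For Acta2 and Tagln, both of smooth muscle, it was -1.37 ± 0.47 (adjusted p = 0.151) and -1.13 ± 0.31 (adjusted p = 0.0956). For Pmepa1, a feedback inhibitor, it was -2.06 ± 0.47 (adjusted p = 0.0643). The matrix targets Col1a1 and Fn1 differed by -0.04 ± 0.42 (adjusted p = 0.971) and -0.03 ± 0.42 (adjusted p = 0.977). The Cnn1 call ended when any clone other than triploid clone 1 was left out (adjusted p up to 0.116). It also ended under quantile normalization, without the filter, with the clone number as a block and with only the compared groups fitted, and it passed in 9 of 22 alternatives. The first Ldlrad4 call ended without diploid clone 1, diploid clone 3 or triploid clone 2 (up to 0.0651), and the second without triploid clone 2, tetraploid clone 1 or tetraploid clone 3 (up to 0.0812). They passed in 18 and 17 of 22 alternatives.

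**Figure D4:**
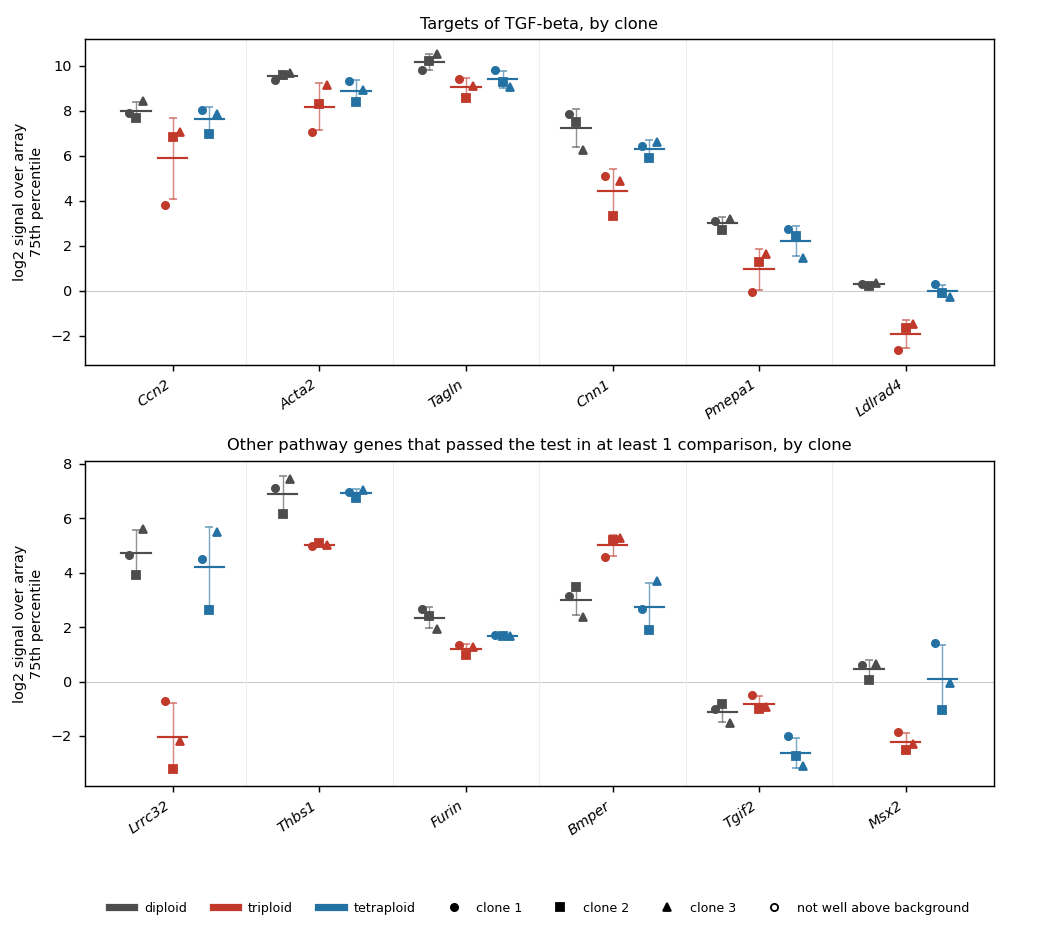
Log2 signal over the array's 75th percentile (vertical axis) of targets of TGF-beta (top) and of other pathway genes that passed in at least 1 comparison (bottom), by clone and ploidy, with bars for the mean ± SD of 3 clones and open symbols for spots not well above background. Triploid clones lie below all others for Ldlrad4, Lrrc32 and Thbs1, and above all others for Bmper.

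Of 8 further antagonists tested, 0 passed against diploid clones and 1 passed against tetraploid clones. Bmper, which binds BMPs outside the cell, had levels of 3.15, 3.46 and 2.38 in diploid, 4.56, 5.21 and 5.26 in triploid, and 2.67, 1.88 and 3.68 in tetraploid clones. It was higher in triploid than in tetraploid clones by 2.27 ± 0.47 (adjusted p = 0.0402), and triploid minus diploid was 2.01 ± 0.47 (adjusted p = 0.0653). The Bmper call ended without diploid clone 1, triploid clone 2, triploid clone 3, tetraploid clone 1 or tetraploid clone 2, and under 3 of the other scalings (adjusted p up to 0.138). It also ended without the filter, with the clone number as a block and with only the compared groups fitted, and it passed in 10 of 22 alternatives.

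Of the 8 BMP targets tested beside the Id members, Msx2, a homeobox gene, passed against diploid clones. Its level was 0.62, 0.06 and 0.66 in diploid, -1.86, -2.53 and -2.30 in triploid, and 1.42, -1.04 and -0.07 in tetraploid clones. Triploid clones lay below all others, and the difference from diploid clones was -2.67 ± 0.54 (adjusted p = 0.0475), a call that ended when any diploid clone, triploid clone 2, triploid clone 3 or tetraploid clone 3 was left out (adjusted p up to 0.162). It passed in 13 of 22 alternatives. Id4, named after its values were seen, did not pass. Its level was 1.72, 2.52 and 0.91 in diploid, -2.44, -0.70 and -0.42 in triploid, and 0.84, -0.52 and 1.19 in tetraploid clones. Triploid clones lay below every diploid clone and overlapped the tetraploid clones, and triploid minus diploid was -2.90 ± 0.64 (adjusted p = 0.0593). Of the 14 intracellular regulators tested, Tgif2, a relative of Tgif1, passed between triploid and tetraploid clones. Its level was -1.01, -0.83 and -1.53 in diploid, -0.48, -1.0 and -0.94 in triploid, and -2.01, -2.73 and -3.11 in tetraploid clones. The tetraploid clones were lowest, and triploid minus tetraploid was 1.81 ± 0.33 (adjusted p = 0.0285). That call ended without diploid clone 1, triploid clone 2, triploid clone 3 or tetraploid clone 3 (adjusted p up to 0.0896), and it passed in 15 of 22 alternatives.

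The 10 further ligands and 6 further receptors tested gave no call in any comparison. Gdf6, one of those ligands, ran from -5.51 to 1.44, with diploid clone 2 and triploid clone 1 not well above background. Acvr2b, a type II receptor for activins, averaged 0.15 ± 0.28 in diploid, 0.23 ± 0.42 in triploid and 0.00 ± 0.64 in tetraploid clones. The kinase Map3k7, an intracellular regulator, averaged 3.79 ± 0.37, 4.36 ± 0.54 and 3.62 ± 0.20, with a triploid minus diploid difference of 0.57 ± 0.31 (adjusted p = 0.337).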

How the data were processed

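Gene expression was measured in 9 clones, 3 per ploidy group by the labels, on 1 array each. Per the file headers, Feature Extraction 10.7.3.1 produced the deposited signal intensity of each spot, with background subtracted, for an array designed on mm9. A further table holds log2 values of the authors, with diploid clone 1 as reference. From the log2 intensities, subtraction of diploid clone 1 and of 1 number for each array gave these values to within 0.001 at 100% of probes.

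Control and outlier spots were left out, 59305 spots gave 55681 probes, and each array was centred on the 75th percentile of its log2 signals. A probe was kept if some group had it well above background in all of its clones (25469 probes; 83 dropped as outliers). RefSeq accessions were named through GRCm38.p6 for 26413 probes, and the brightest kept probe stood for a gene. This left 21797 features. The brightest probe was chosen without regard to group. Of the members, 11 had further probes; in 9 of their 33 comparisons the probes' differences had unlike signs.

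limma 3.58.1 in R 4.3.3 fitted 1 mean per group over all 9 clones, with eBayes (prior df 3.19, residual df 6) and Benjamini-Hochberg adjustment over all features, at 0.05. Every adjusted p printed comes from limma: from this fit, or where named from a fit under an alternative or over all probes. The script was tested on simulated data. A probe below background in a whole group has only a bound: "at least" folds compare the bright group's mean with, per array, the higher of the lowest signal well above background and the probe's own. The number of arrays limits the precision.

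The members and lists were chosen with earlier results of these data known. Of the lists of other pathway genes, 2 entries are not reported here and are in no count of those lists. Per-clone values are given for members called, or with groups that do not overlap and a difference of at least 1; up to 3 others per role are given by mean and SD, and pathway genes where called, where usual targets, or as the brightest of a list. Other names were added after their values were seen. Alternatives covered background correction (normexp with an offset of 50, on median pixel signals because the files hold no mean signal), scaling, the authors' table, the filter, the probe, the slide, a clone-number block, the intensity trend, the groups fitted and each clone left out. Correlations of deviations between clones of the same number lay between -0.13 and 0.09, so the numbers did not pair clones. The descriptions of 8 clones give other numbers in place of p53, read here as an error of entry because the genotype field gives p53-/- for all.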

Additional observations from a re-analysis of the deposited data

How the results depend on the processing

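The Itga5 differences kept their sign under all 22 alternatives and passed under 16 of them against diploid clones (-1.79 to -1.29, adjusted p 0.00696 to 0.0676) and under 17 against tetraploid clones (-1.47 to -1.11, 0.0117 to 0.0875). No called value reversed. The 526 values followed belonged to 24 gene and comparison pairs, either called or members without overlap and with a difference of at least 1. Of these values, 427 kept their side of the threshold, 86 lost and 13 gained a call. Members outside this selection could turn sign, as Bmp1 did between triploid and tetraploid clones in 3 alternatives. Members called between triploid and diploid clones became 2, with Inhba added, under normexp, the percentile of detected probes, quantile normalization, the authors' table centred, the filter on all arrays and the intensity trend, and 0 with no filter or with the slide as a block, which removes diploid clone 1. The corresponding features called were 786 with the authors' table centred, 103 with no filter, 81 with the slide block, 219 with clone number as a block and 206 with those groups alone. Other pathway genes called were 12 with the table centred, 10 with the filter on all arrays, 2 with no filter and 1 with the slide block, and the member median was -0.21 with the table centred. Between tetraploid and diploid clones, features called were 9 with normexp, 97 with detected probes, 5 with quantile normalization, 149 with the table centred, and 0 with no filter, with the slide block and with the clone-number block. Between triploid and tetraploid clones, with no filter 0 members, 198 features and 1 pathway gene passed. With those groups alone 369 features, 2 pathway genes and 2 members passed, Bmp2 among them. The Bmp2 difference there was fixed by the filter on dim signals and counts as no test. With the slide block 284 features and 3 pathway genes passed. The filter on all arrays gave 9 pathway genes there, and the table centred gave a member median of -0.37. The cause of these shifts was not tested.

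Leaving out 1 clone at a time gave 0 to 6 members, 61 to 1434 features and 1 to 9 pathway genes between triploid and diploid clones, with a member median of -0.06 to 0.20. Between triploid and tetraploid clones it gave 0 to 3 members, 117 to 1312 features and 1 to 8 pathway genes, with a member median of -0.41 to 0.01. Bmp2, whose difference there was fixed by the filter, was among the members called without diploid clone 2 or diploid clone 3. Between tetraploid and diploid clones the omissions gave 0 to 40 features, with a member median of 0.09 to 0.23 and 0 members. The highest feature counts of the triploid comparisons came without triploid clone 1.

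Clone numbers do not pair these clones, and the clone-number block left 1 member called, Itga5, between triploid and diploid clones. In each group 3 arrays limit the precision, and a clone left out leaves 2. Dim spots with a log2 level near -6 lie in the background and carry no order. Putting dim spots at the lowest signal above background, and the authors' table as deposited, were alternatives chosen after seeing the data; both left the same single member called in the triploid comparisons.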
